A study of Mus musculus with 2 samples.

Results

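The 10 adipocyte genes described here, Adipoq, Cfd, Retn, Plin1, Cidea, Fabp4, Lpl, Gpd1, Dgat2 and Pparg, were followed in cultured mouse chondrocytes before and after mechanical loading. They are 10 of the 20660 genes that could be named on the arrays. A gene was found through probes whose RefSeq transcript accession belongs to it, which gave 12 probes, and the brightest probe stood for the gene. All 10 genes had a brightest probe that the scanner software called well above background on both arrays, a condition called detected here, as were 14231 genes in all. The genes were chosen with their ratios on these same 2 arrays already known, so that every ratio below is a description and none is a test.

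Primary articular chondrocytes came from 6-day-old C57BL/6J mice, with no genotype other than the strain given, and were kept for 48 h in fibronectin-coated silicon stretch chambers. One sample was taken before loading and the other 24 h after the cells had been stretched cyclically for 30 min, by 10% in length at 0.5 Hz. Each was hybridised to 1 one-colour array, and the labels do not say how many animals were pooled. A single array stands for each time, so that precision is limited by their number and neither a replicate error nor a p-value can be given. Cells kept unloaded until 24 h were not analysed here, so the loading and the longer culture cannot be told apart. The errors given are the scanner software's own spot errors and cover within-array error only. As a check of the label, all 12 chondrocyte markers listed, among them Col2a1, Acan and Sox9, were detected on both arrays, and their log2 ratios ran from -0.82 to 0.56.

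Adipocytes store energy as triglyceride in a lipid droplet and secrete hormones such as adiponectin. Their differentiation is driven by the nuclear receptor PPARγ together with the C/EBP factors, which switch on genes for fatty acid uptake, triglyceride assembly and droplet coating. Chondrocytes and adipocytes both descend from mesenchymal progenitors, and cartilage preparations can carry cells of neighbouring tissues.

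Promoter windows were read because PPARγ and C/EBP are the known regulators of adipocyte genes. The windows of Adipoq, Plin1 and Pparg are shown, and each held matches to the motifs named below. Those of Cfd and Retn, which held none, are not shown. The ratios of Adipoq, Plin1, Cfd and Retn were all opposite in sign to that of Pparg, with matches or without. RefSeq's windows (build GRCm38.p6, 250 bases before to 50 after the start) were read for 5 of the 10 genes, with 7 start sites. No window of Gpd1, Fabp4, Lpl or Dgat2 was in the table used here, and Cidea was left out of the search. Searched on both strands were the C/EBP motif TTGCNNAA, the nuclear receptor hexamer AGGTCA, its direct repeat (2 copies of the hexamer in a row with 1 base between, the form PPARγ binds with RXR, so that each repeat also counts as a hexamer) and the CCAAT box. Capitals mark the matches. The Pparg window shown is that of the most downstream start site in the table. It also held the most matches of the Pparg windows read.
Adipoq, chr16:23146286-23146585, + strand: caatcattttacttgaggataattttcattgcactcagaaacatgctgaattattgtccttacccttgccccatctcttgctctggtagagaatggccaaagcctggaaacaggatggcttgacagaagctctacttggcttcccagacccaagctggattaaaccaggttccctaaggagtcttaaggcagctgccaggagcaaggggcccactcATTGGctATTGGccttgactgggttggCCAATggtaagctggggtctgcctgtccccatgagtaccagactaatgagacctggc
Plin1, chr7:79732727-79733026, - strand: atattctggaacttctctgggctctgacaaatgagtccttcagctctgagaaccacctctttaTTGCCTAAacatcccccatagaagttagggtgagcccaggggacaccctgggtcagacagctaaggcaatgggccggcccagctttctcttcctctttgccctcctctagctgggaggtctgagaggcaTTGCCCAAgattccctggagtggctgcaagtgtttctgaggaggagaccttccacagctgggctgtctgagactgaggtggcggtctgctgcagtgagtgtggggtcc
Pparg, chr6:115421816-115422115, + strand: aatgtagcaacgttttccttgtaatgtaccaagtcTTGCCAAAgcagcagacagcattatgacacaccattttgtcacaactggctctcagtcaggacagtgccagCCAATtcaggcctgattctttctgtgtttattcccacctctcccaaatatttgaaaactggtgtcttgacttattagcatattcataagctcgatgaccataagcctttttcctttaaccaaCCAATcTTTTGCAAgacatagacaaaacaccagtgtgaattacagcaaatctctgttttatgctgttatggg
The Adipoq window held 3 CCAAT boxes, 34, 27 and 7 bases before the start, counted to the first base of the match. The Plin1 window held 2 C/EBP motifs, 187 and 58 bases before the start. The Pparg window held C/EBP motifs at 215 and 16 bases and CCAAT boxes at 144 and 22 bases before the start. The hexamer AGGTCA lay in the windows of the upstream Pparg start sites, 28 and 9 bases before the start, and the second of these also had a CCAAT box 83 bases before it. The windows of Cfd and Retn held none of these letters, and the direct repeat was in none of the 7 windows. Of all 32851 windows in the table, 10.8% held the C/EBP motif, 16.3% the hexamer, 0.0396% the direct repeat and 37.4% a CCAAT box. Such matches are descriptions of the letters and not binding sites.

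A total of 6 genes rose more than 2-fold by 24 h, namely Adipoq, Gpd1, Cfd, Cidea, Retn and Plin1. Fabp4 and Lpl had positive ratios inside 2-fold, and Pparg and Dgat2 had negative ratios inside 2-fold. Thus 6 of 10 genes were more than 2-fold higher and 0 were more than 2-fold lower, where 0.668% of all detected genes were higher and 1.83% lower. Their log2 ratios had a median of 1.23, against -0.01 over all detected genes. Nothing is read from these counts, because the same ratios chose the genes. A bulk array cannot tell more cells of a type from more RNA per cell. The log2 ratio is that of the intensity after scaling each array to its 75th percentile, 24 h after minus before loading.

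**Figure D1:**
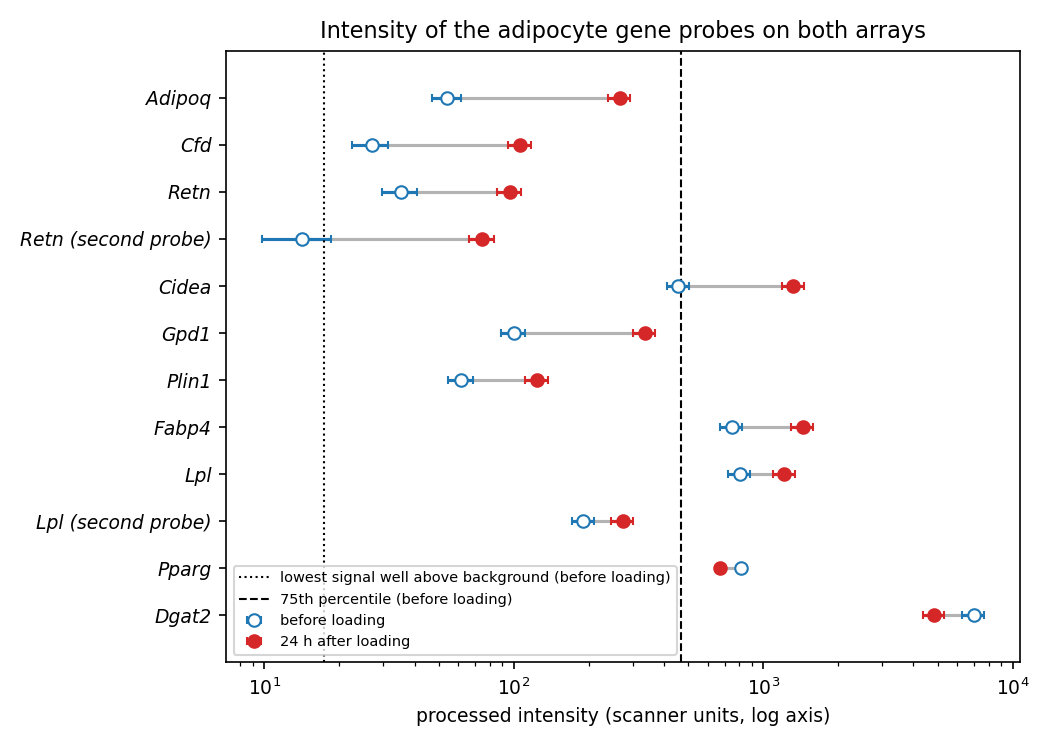
Processed intensity of the 12 probes of the adipocyte genes (log axis) before loading (open points) and 24 h after (filled points), with the scanner software's spot error as bars. The filled point lies to the right for every probe except those of Pparg and Dgat2, and the second Retn probe starts below the lowest signal well above background.

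Adipoq, Cfd and Retn, which encode the adipokines among the 10 genes, rose. Adipoq encodes adiponectin, the hormone of adipocytes that improves insulin sensitivity. Its intensity was 54.2 before loading and 265 at 24 h, 4.90-fold higher, with a log2 ratio of 2.29 and a within-array error of 0.24. Its probe was dim before loading, where the median pixel signal of the spot was 2.68 times its local background, against 5.88 times at 24 h. Adipoq ranked 4 of the 14231 detected genes from the highest ratio.

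Cfd encodes adipsin, the serine protease also known as complement factor D. Its intensity went from 26.9 to 106, a log2 ratio of 1.98 (error 0.29) or 3.94-fold. The spot before loading stood at 1.97 times its local background and was close to the lowest intensity well above background on that array, 17.3. Cfd ranked 10 from the highest.

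Retn encodes resistin, a small secreted protein of mouse adipocytes, and had 2 probes for the same transcript. The brighter probe went from 35.3 to 96.4, a log2 ratio of 1.45 (error 0.28) or 2.74-fold. The dimmer probe had 14.2 before loading, not well above background, and 74.7 at 24 h. Its value at 24 h was 4.32-fold above the lowest intensity well above background before loading, 17.3. That fold is not a lower limit, because brighter spots can also miss the call. Both probes thus moved the same way. Among the 28 spots within 100 µm of the brighter Retn spot, 3 had also risen more than 2-fold and 1 had fallen, whereas of the 26 spots around the dimmer Retn spot 0 had risen. Neighbours here and below were all spots other than controls and outliers, whether or not well above background. The share of all such spots past 2-fold was not counted, and the shares of detected genes do not stand in for it. The part of this neighbourhood in the ratio of the brighter probe was not tested. For Adipoq and Cfd, 0 of 30 and 0 of 29 surrounding spots had changed more than 2-fold.

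Cidea and Plin1, both of the lipid droplet, also rose. Cidea encodes a droplet protein that promotes fusion of droplets and is best known from brown adipocytes. Its intensity was 457 before loading and 1318 at 24 h, a log2 ratio of 1.53 (error 0.20) or 2.89-fold. Its spot stood at 12.4 times the local background before loading and 30.8 times at 24 h, and Cidea was the single one of the 6 genes with a mean intensity above the 75th percentile. Around it, 0 of 28 spots had risen more than 2-fold and 2 had fallen. Plin1 encodes perilipin 1, which coats the droplet and controls the access of lipases. Its intensity went from 61.7 to 124, a log2 ratio of 1.01 (error 0.22) or 2.01-fold, and its call lies at the threshold.

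Genes of fatty acid supply had smaller ratios. Fabp4, the fatty acid carrier of the adipocyte cytoplasm, went in intensity from 746 to 1440, a log2 ratio of 0.95 (error 0.20) or 1.93-fold. Plin1 at 1.01 and Fabp4 at 0.95 were the members on either side of the 2-fold line, and they differed by less than the within-array error of each. Lpl, the secreted lipase that frees fatty acids from lipoproteins, had 806 and 1216 on its brighter probe, a log2 ratio of 0.59 (error 0.20). Its second probe had 190 and 273, a log2 ratio of 0.52 (error 0.21), which differed from the first by less than the within-array error.

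The enzymes that build triglyceride were split. Gpd1, the cytosolic dehydrogenase that makes glycerol 3-phosphate for triglyceride, went from 99.8 to 335, a log2 ratio of 1.75 (error 0.21) or 3.36-fold. Its spot stood at 3.81 times the local background before loading and 9.76 times at 24 h. Dgat2, the acyltransferase of the last step of triglyceride synthesis, went the other way, from 6974 to 4833, a log2 ratio of -0.53 (error 0.20) or 1.44-fold lower. Its spot was far above the local background on both arrays, at 199.9 and 119 times, so dimness does not limit its value.

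Pparg, which encodes the regulator PPARγ, was measured by 10 spots of 1 probe, of which 8 carried no outlier flag. Over these 8 spots the intensity ran from 768 to 888 before loading and from 618 to 716 at 24 h. The mean log2 ratio was -0.27 (within-array error 0.07) or 1.21-fold lower, and the 8 spots ranged from -0.43 to -0.18 with an SD of 0.08. The 2 flagged spots had -0.31 and -0.36. These spots share the array and the RNA, and are not replicates of the culture. Summed over the 8 Pparg spots, 226 neighbours lay within 100 µm, of which 6 had risen more than 2-fold and 22 had fallen. These neighbours include spots not well above background, so their counts cannot be set against the shares of detected genes. The part of this neighbourhood in the Pparg ratio was not tested. The accession of the probe does not separate the PPARγ isoforms here.

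**Figure D2:**
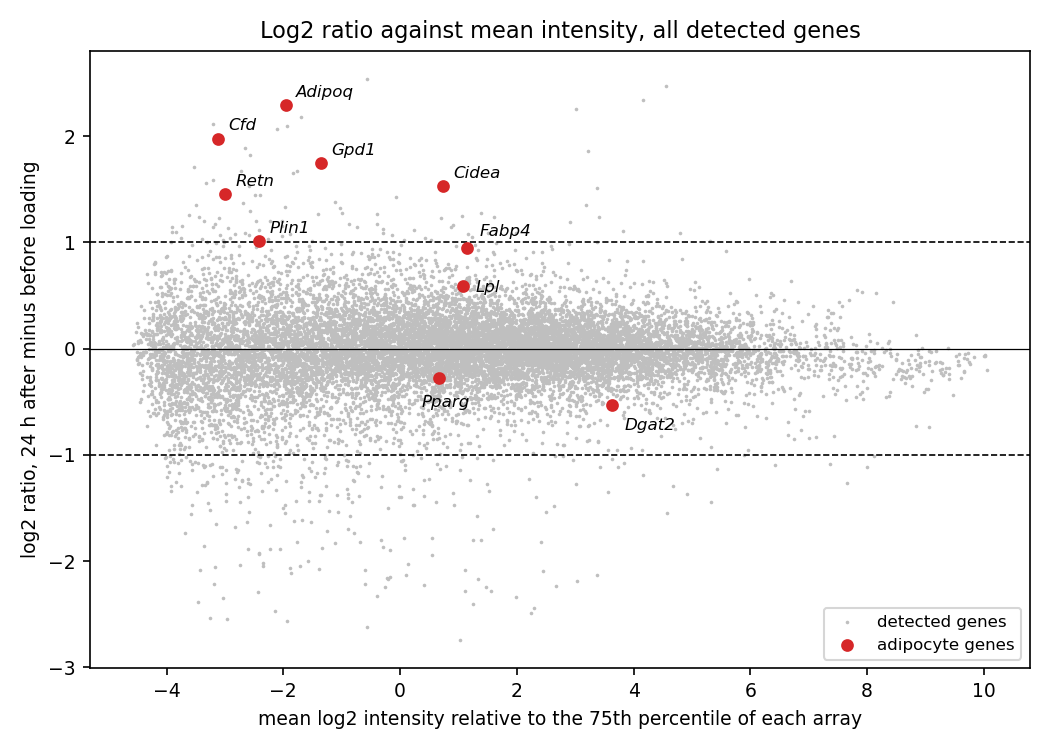
Log2 ratio (24 h after minus before loading) against the mean log2 intensity (0 is the array's 75th percentile), for 14231 detected genes (grey) with the 10 adipocyte genes in red and dashed lines at 2-fold. Adipoq, Cfd, Gpd1, Retn and Plin1 lie left of 0 on the intensity axis, where grey points past 2-fold are also more frequent.

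Detected genes of low intensity passed 2-fold more often than brighter ones. Of the 10 adipocyte genes, 5 had a mean intensity below the 75th percentile, and all of these (Adipoq, Cfd, Retn, Gpd1 and Plin1) rose more than 2-fold, where 1.2% of detected genes in that range rose and 3.23% fell. Of the 5 genes above it, Cidea alone rose, where 0.315% of detected genes rose and 0.899% fell. A stricter call asked that the ratio exceed 2-fold by a margin of 2 errors. Adipoq, Cfd, Gpd1 and Cidea met it, and 0 of the 10 genes met it in the lower direction, against 0.176% of detected genes higher and 0.696% lower. Under this call Retn and Plin1 dropped out.

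The calls of Cfd, Retn and Plin1 depended on the background correction and its offset. With normexp correction and an offset of 50 intensity units, which is added to both arrays and draws the ratios of dim spots towards 0, the log2 ratios were 1.28 for Adipoq, 1.27 for Gpd1 and 1.44 for Cidea. Those of Cfd (0.97), Retn (0.66) and Plin1 (0.62) came inside 2-fold. That left 3 genes more than 2-fold higher and 0 lower, against 0.267% and 0.829% of detected genes. With the offset at 0, Adipoq had 1.77, Cfd 1.58, Gpd1 1.56 and Retn 1.14, and 5 genes were higher, with Plin1 at 0.87. Scaling by the array medians or to the spike-in controls instead raised every ratio, by 0.10 and 0.09, and then put Fabp4 past 2-fold as well, at 1.05 and 1.04. None of the 10 genes changed sign under any alternative run.

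**Figure D3:**
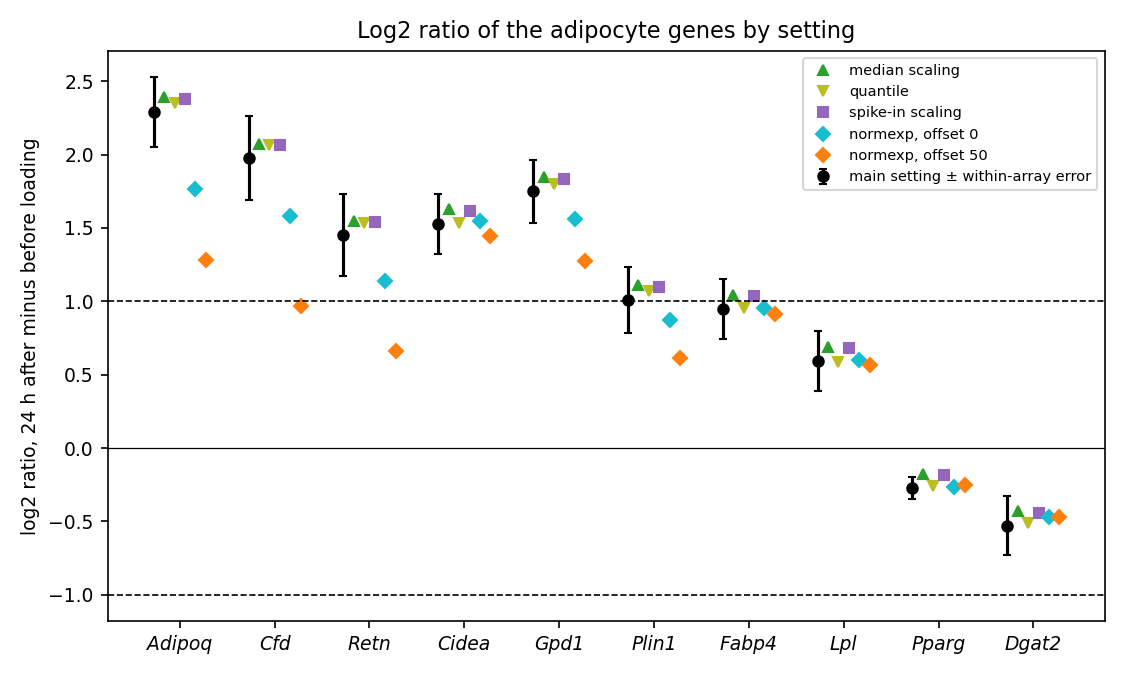
Log2 ratio of each adipocyte gene under the main setting (black, bar: within-array error), 3 other scalings and normexp correction with an offset of 0 or 50, with dashed lines at 2-fold. Cidea, Fabp4, Lpl and Dgat2 stay within their error, while Adipoq, Cfd, Retn, Gpd1 and Plin1 move down with normexp correction.

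Other adipocyte markers stayed inside 2-fold in the gene lists set beside the 10 genes, some of which share members. Of 16 further markers listed, 10 were detected, and of these 0 were more than 2-fold higher and 0 lower, with a median log2 ratio of 0.14. Adrb3, the adrenergic receptor that starts lipolysis in rodent fat, had 0.98 on its brighter probe (28.2 and 55.5) and 0.27 with normexp correction and the offset of 50, while its second probe had -0.13 and was not well above background at 24 h. Cd36, a fatty acid transporter, had 0.76 (47.3 and 80.1). Plin4, a droplet coat protein, had 0.17, and Slc2a4, the insulin-responsive glucose transporter, had 0.41 over 10 spots. Adig, a small adipocyte membrane protein, had -0.08 by the brighter probe and 0.48 by the second. Thrsp, a nuclear protein of lipogenic tissues, had the lowest ratio of the list, -0.66 (420 and 266). The markers Lep (leptin), Cidec, Lgals12, Trarg1, Pck1 and Acvr1c were on neither array well above background. Leptin, measured by 10 spots, had intensities of 5.78 and 4.35.

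Transcription factors of adipogenesis stayed inside 2-fold. All 15 listed were detected, with a median log2 ratio of 0.03. Cebpb and Cebpd, which act early in adipogenesis, had -0.34 and -0.39, and Cebpa, which acts late with PPARγ, had 0.11. Nr1h3, the oxysterol receptor LXRα, had the highest ratio of the list, 0.75, with 0.50 on its second probe. The 12 preadipocyte and inhibitory genes gave 11 detected, of which 4 had positive and 7 negative ratios, 0 past 2-fold and a median of -0.27. Among them Dlk1, the inhibitor also called Pref-1, had -0.57 and -0.51 on its 2 probes, and Wnt10b, a Wnt ligand that restrains adipogenesis, had -0.75, while Cd34, a surface marker of adipose progenitors, had the highest ratio of the list, 0.58, on its brighter probe (its other probe was not detected).

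The lists of lipid droplet proteins and of brown and beige adipocyte markers held 3 genes past 2-fold, Cideb, Cox8b and Otop1. Among 9 further droplet proteins, 6 were detected and Cideb, a relative of Cidea best known from liver, rose from 258 to 562, a log2 ratio of 1.12 (error 0.21). The second Cideb probe had 0.81, and the median of the list was 0.25. Plin2, the perilipin of most cell types, had 0.42. Among 10 brown and beige adipocyte markers, 7 were detected with a median of 0.06, and Cox8b, a respiratory chain subunit of brown fat and muscle, went from 40.2 to 81.5, a log2 ratio of 1.02 (0.64 with normexp correction and the offset of 50). Ucp1, the uncoupling protein that defines brown fat, was on neither array well above background (5.48 and 4.54). In the same list the brighter Otop1 probe went from 68.8 to 22.9, 3.01-fold lower, and was no longer well above background at 24 h. Its log2 ratio of -1.59 (error 0.37) came to -0.56 with normexp correction and the offset of 50.

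Triglyceride synthesis (11 of 12 detected), lipolysis (4 of 4), fatty acid uptake and lipoprotein lipase partners (11 of 11), fatty acid synthesis (7 of 7) and adiponectin receptors (3 of 3) held 0 genes past 2-fold. Their median log2 ratios were 0.00, 0.22, 0.14, -0.22 and 0.15. In fatty acid synthesis 6 of 7 genes had negative ratios, among them Acly and Scd1, both at -0.52, and Fasn at -0.04, whose sign turned under another scaling. Fabp5, the fatty acid carrier found in many cell types, had -0.70, opposite in sign to Fabp4. Mgll, the lipase that splits monoglycerides, had 0.59, 0.47 and 0.27 on its 3 detected probes, and Angptl4, an inhibitor of lipoprotein lipase, had 0.40.

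**Figure D4:**
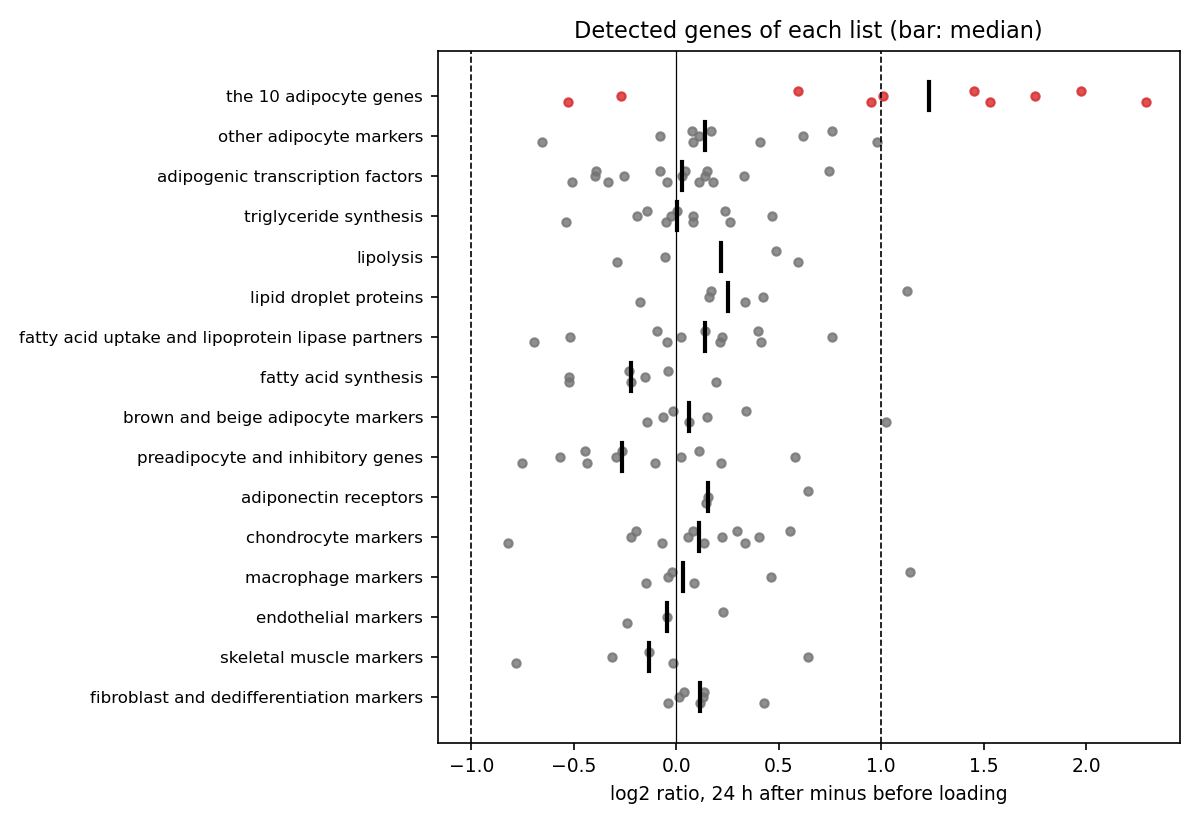
Log2 ratio (24 h after minus before loading) of each detected gene of the 16 gene lists, 1 point per gene, with the median of each list as a bar and dashed lines at 2-fold. The 10 adipocyte genes have a median of 1.23, and the medians of the other 15 lists lie between -0.27 and 0.25. Nothing is read from this contrast, because the 10 genes were chosen with these ratios known.

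Markers of other cell types were read beside these values. Of 7 macrophage markers 6 were detected, with a median log2 ratio of 0.03 and a summed intensity of 29637 before loading and 28708 at 24 h. Most of that sum was the brighter Itgam probe (25496 and 24759), while the second Itgam probe had 70.4 and 54.9. Ptprc, the leukocyte surface phosphatase CD45, rose from 20.9 to 46.1, a log2 ratio of 1.14 (error 0.35) that came to 0.40 with normexp correction and the offset of 50, and Cd68 matched no probe. Of 7 endothelial markers 3 were detected (median -0.05, summed intensity 14516 and 13885), most of the sum was the brighter Kdr probe (12774 and 12375), whose second probe was not detected, and Cdh5, Tie1, Emcn and Tek were on neither array well above background. Of 7 skeletal muscle markers 5 were detected (median -0.13, summed intensity 1886 and 1563), and Ckm and Des were not well above background. Of 7 fibroblast markers all 7 were detected, with a median of 0.12 and none past 2-fold. The part of these cell types in the adipocyte gene ratios was not tested.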

How the data were processed

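Chondrocyte RNA from before loading and from 24 h after it was labelled with Cy3 (0.1 µg total RNA) and hybridised to SurePrint G3 Mouse Gene Expression arrays, 1 per time point. The authors deposited the processed intensity of each spot from Agilent Feature Extraction 10.10.1.1, background-subtracted and not normalized between arrays; their value table holds the same intensities, rounded (largest difference 0.497%). Of 59305 spots other than controls, 59.14% and 57.66% were well above background and 0 were saturated. Outlier-flagged spots (141 and 138) were left out, spots of one probe were averaged as log2 intensity, and each array was set to its 75th percentile (466.4 and 466.2). Probes were named by unversioned accession through RefSeq (GRCm38.p6, names only), which matched 27235 of 55678. A change is called past 2-fold.

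The 10 genes and the 15 gene lists were chosen with earlier results of these data known. All 10 genes were named, and from the other lists every gene past 2-fold that was well above background on at least 1 array; further genes were named after their values were seen. A total of 9 alternatives were set beforehand and 2 were added after seeing the data. Normexp was run with limma 3.58.1 (R 4.3.3) on median spot and background intensities, since the files hold no mean, and the rest in Python 3.11.15 (numpy 2.4.6, pandas 2.3.3, scipy 1.17.1). The script that makes the calls was tested on simulated data, with planted changes well past 2-fold and the within-array error as noise. That test does not cover calls near 2-fold or error between arrays.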

Additional observations from a re-analysis of the deposited data

How the results depend on the processing

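The count of 6 adipocyte genes more than 2-fold higher fell to 3 with normexp correction and an offset of 50, and the median log2 ratio of the 10 genes went from 1.23 to 0.79; with the offset at 0, an alternative chosen after seeing the data, these were 5 and 1.04. By construction the offset adds the same amount to both arrays and lowers the ratios of dim spots. The count was 7 with median and spike-in scaling, 4 with the allowance for error and 6 under quantile normalization. It was also 6 with the mean over probes, either weaker filter on dim probes, the authors' value table and outlier spots kept (added after seeing the data). The weaker filters could not change it, since all 10 genes were already detected. The mean over probes altered the ratio of Lpl alone, and keeping outliers added spots to Pparg alone. The value table holds the same intensities, rounded. Most of these alternatives therefore say little about the count. The count of lower genes was 0 throughout. Of the single genes, 5 shifted beyond their own spot error with the offset of 50, 3 with the offset of 0, and Pparg alone with median (-0.17) and spike-in scaling (-0.18). No paired analysis was possible because a single array stands for each time point. Signal over background limits Adipoq, Cfd, Retn and Plin1, whose brightest probes before loading stood between 1.90 and 3.11 times their local background.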
